A study of Mus musculus with 32 samples.

Results

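The genes of RNA polymerase II subunits were followed in mouse B cells that had or lacked ELOF1, a factor that binds the elongating polymerase. The 10 genes Polr2a to Polr2j were taken by their names from the 43345 mouse genes of the count tables. Each of them had a single entry in both tables and was tested in all fits. The study counted RNA in 32 libraries, 16 of the CH12F3 line and 16 of B cells from spleen. CH12F3 is a mouse B lymphoma line that switches its antibody class in culture.

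All CH12F3 groups carried a knockout of Elof1 and were stimulated with α-CD40, IL4 and TGF-β. The deficient cells (Elof1-KO +Vector, called vector cells here) received the vector. The proficient cells (Elof1-KO +ELOF1, called ELOF1 cells here) received ELOF1, so they are a rescued line and not an unedited one. Each had 4 libraries at day 1.5, 2 at day 3 and 2 at day 7. B cells of the spleen came from Elof1-cKO (cKO) or wild-type (WT) mice and received IL4 with LPS, with 5 libraries each at day 2.5 and 3 each at day 3.5. Not given in the sources used here are the number of CH12F3 clones, the driver of the conditional knockout and the age of the mice. Nothing in the labels says that replicates came from separate cultures or animals, so p-values measure the spread between these libraries, which may be technical.

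RNA polymerase II makes messenger RNA. Its catalytic core is formed by the largest subunits, RPB1 (Polr2a), whose C-terminal domain (CTD) of repeated heptads is phosphorylated during transcription, and RPB2 (Polr2b). RPB3 (Polr2c) and RPB11 (Polr2j) pair as the platform on which the core is assembled, and RPB4 (Polr2d) and RPB7 (Polr2g) form a stalk beside the RNA exit. RPB5, RPB6 and RPB8 (Polr2e, Polr2f and Polr2h) are shared with RNA polymerases I and III. RPB9 (Polr2i) is a small zinc-binding subunit linked to transcription fidelity. ELOF1 is known for a role in transcription-coupled DNA repair, in which RPB1 is a target of ubiquitylation.

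The libraries held 7112130 to 16359477 mouse counts each. By their library numbers they fall into 2 series, of which the first holds replicates 1 and 2 of CH12F3 day 1.5 and replicates 4 and 5 of spleen day 2.5 in each genotype, and the second all others. Levels are given in CPM, the usual rate of a gene's counts in the mouse counts of its library, after TMM scaling of all 32 libraries together. Elof1 checked the labels, with 0.895 to 5.06 CPM in vector cells against 131 to 642 CPM in ELOF1 cells, and with 1.34 to 8.19 CPM in cKO against 11.8 to 59.1 CPM in WT spleen libraries. All 6 B cell markers reached 1 CPM in both systems. T cell markers summed to 31.8 to 61.3 CPM in CH12F3 and 11.7 to 38.1 CPM in spleen, with 3 of 6 and 2 of 6 markers reaching 1 CPM, and in spleen Cd4 stayed below 0.1 CPM in every library. Myeloid markers had a median sum of 68.5 CPM in CH12F3 and 7.56 CPM in spleen (52 to 164 CPM in ELOF1 cells and 2.79 to 18.9 CPM in WT spleen), 3 of 6 reached 1 CPM in each, and S100a8 stayed below 0.1 CPM in both. NK cell markers summed to at most 0.68 CPM in CH12F3 (0 of 4 reached 1 CPM) and 4.48 CPM in spleen (1 of 4), and erythroid markers to at most 2.22 CPM in CH12F3 (2 of 4) and 1.04 CPM in spleen (0 of 4). Plasma cell markers summed to 137 to 477 CPM in CH12F3 (3 of 4 reached 1 CPM) and 454 to 1293 CPM in spleen (4 of 4). B cell markers summed to 5555 to 7001 CPM in vector and 4777 to 5476 CPM in ELOF1 cells, and to 6945 to 14227 CPM in cKO and 5811 to 11704 CPM in WT spleen libraries. The part of these cell types in the results was not tested. In these bulk samples, fewer cells of a type and less RNA per cell cannot be told apart.

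The promoters of 3 members are printed because their genes carry the clearest results: Polr2a, which held the most counts of the members, Polr2b, the 1 member higher in CH12F3 than in spleen, and Polr2j, the member with the largest difference in the other direction. The sequences are the 130 bases before the transcript start in RefSeq on GRCm38.p6, the assembly also called mm10, and are written 5′ to 3′ along the gene. RefSeq promoters were found for 8 of 10 members, not for Polr2d and Polr2g. Capitals mark matches, on either strand, to TATAAA, the letters of the TATA box, to GGGCGG, those of the GC box, to CCAAT, to the ETS core CCGGAAG or to the NRF1 core GCATGCGC, so a match on the other strand shows the complementary letters. The marked matches do not overlap. The windows are chr11:69758634-69758763 on the minus strand for Polr2a, chr5:77310354-77310483 on the plus strand for Polr2b and chr5:136116561-136116690 on the plus strand for Polr2j. The RefSeq starts differ from those of the genes as counted. As counted, Polr2b begins at 77310147, so its window lies wholly inside the gene. Polr2j begins at 136116631 and Polr2a, on the minus strand, at 69758637, so their windows overlap the genes in part.
Polr2a: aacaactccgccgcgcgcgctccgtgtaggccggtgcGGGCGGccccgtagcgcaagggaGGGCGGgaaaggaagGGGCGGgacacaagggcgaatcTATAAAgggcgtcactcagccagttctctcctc
Polr2b: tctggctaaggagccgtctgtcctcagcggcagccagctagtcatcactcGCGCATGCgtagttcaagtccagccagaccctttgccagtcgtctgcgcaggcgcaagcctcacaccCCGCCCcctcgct
Polr2j: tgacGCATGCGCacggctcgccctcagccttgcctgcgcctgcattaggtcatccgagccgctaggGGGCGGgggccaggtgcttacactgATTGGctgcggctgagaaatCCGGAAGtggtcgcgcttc

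Polr2a held TATAAA 33 to 28 bases before its start. Polr2c held it only farther away, at 151 to 146 bases, and the other 6 members with a promoter did not hold it within 250 bases, a window in which 12.4% of 32851 mouse transcript starts did. GGGCGG was found for 6 of the 8 members against 32.7% of all starts, and 3 copies stood before Polr2a. GCATGCGC was found before Polr2b and Polr2j against 2.26% of all starts, and CCGGAAG before Polr2f and Polr2j against 6.91%. CCAAT was found for 3 of the 8, Polr2c, Polr2i and Polr2j, against 33.8%. A match is a description of letters and shows no binding.

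The members lie on 9 chromosomes. Polr2a (ENSMUSG00000005198) spans chr11:69733997-69758637 on the minus strand, Polr2b (ENSMUSG00000029250) chr5:77310147-77349324 on the plus strand, Polr2c (ENSMUSG00000031783) chr8:94857450-94864242 on the plus strand, and Polr2e (ENSMUSG00000004667) chr10:80035949-80039795 on the minus strand. Polr2f (ENSMUSG00000033020) spans chr15:79141351-79151774 on the plus strand, Polr2g (ENSMUSG00000071662) chr19:8793129-8798557 on the minus strand, Polr2h (ENSMUSG00000021018) chr16:20717665-20722267 on the plus strand, Polr2i (ENSMUSG00000019738) chr7:30231948-30233390 on the plus strand and Polr2j (ENSMUSG00000039771) chr5:136116631-136122947 on the plus strand, in the mm10 coordinates of the count tables, and Polr2d (ENSMUSG00000024258) lies on chromosome 18. Exons of 5 members share bases with a gene on the opposite strand: 85 with Igfbp7 for Polr2b, 415 with Dok4 for Polr2c, 82 with Clcn2 for Polr2h, 325 with Tbcb for Polr2i and 176 with Lrwd1 for Polr2j. Whether counting used the strand is not given in the sources used here. Reads of the shared bases therefore cannot be told apart.

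Levels differed widely between the subunit genes. Polr2a, the catalytic subunit with the CTD, ranged from 460 to 691 CPM in CH12F3 (median 521) and from 438 to 725 CPM in spleen (median 589). It held 53.2% ± 4.7 of the counts of the 10 members in CH12F3 and 54.2% ± 4.12 in spleen (SD, n = 16 libraries each). Polr2b, the other catalytic subunit, ranged from 134 to 187 CPM in CH12F3 and from 116 to 163 CPM in spleen. The remaining 8 members stayed between 8.76 CPM (Polr2i in CH12F3) and 94 CPM (Polr2e in spleen). Every library thus had its highest member count in Polr2a, the longest of the 10 genes by exon length, so genes are compared per length from here.

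**Figure D1:**
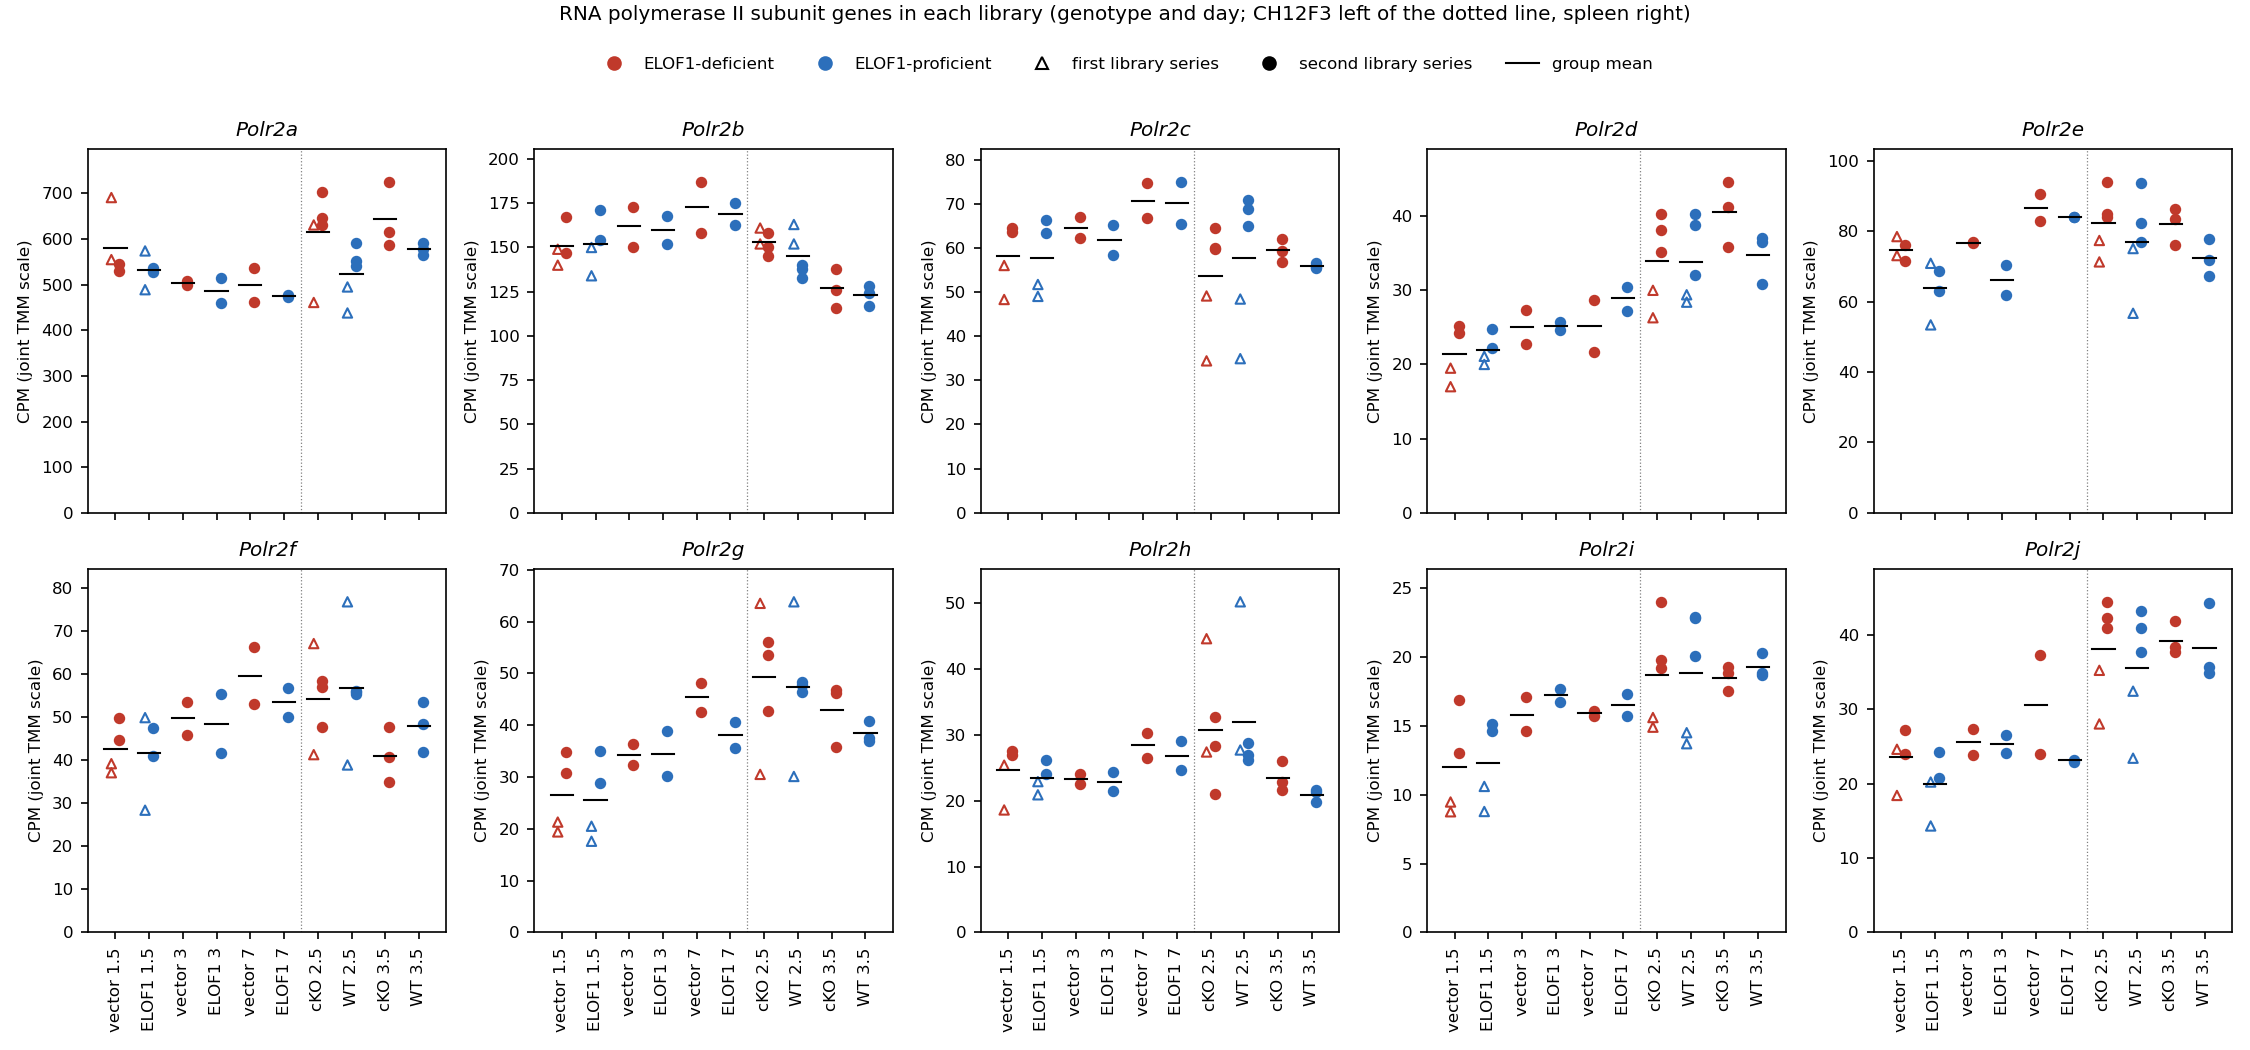
Level of each subunit gene in every library, in CPM on the scale of all 32 libraries, by genotype and day. Red points are ELOF1-deficient and blue points ELOF1-proficient libraries, open triangles are libraries of the first and filled circles of the second library series, and black lines are group means. Polr2a sits at 438 to 725 CPM and Polr2i at 8.76 to 24 CPM, and the open triangles of Polr2i lie below the circles of the same groups.

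Per kilobase of the exon length given in the count tables, Polr2f came first with 87.5 ± 16.5 CPM per kb in CH12F3 and 94.6 ± 20.2 in spleen (SD, n = 16 libraries each). Polr2a came second with 74.1 ± 7.94 in CH12F3 and 82.7 ± 11 in spleen. The order of these 2 held in 13 of 16 CH12F3 and 11 of 16 spleen libraries, and the difference between them was not tested. In CH12F3 there followed Polr2c (39.4), Polr2g (36.9), Polr2b (34), Polr2e (27.7), Polr2d (25), Polr2j (21.6), Polr2h (17.1) and Polr2i (11.8 CPM per kb). Neighbours kept this order in all 16 libraries for Polr2a above Polr2c, Polr2b above Polr2e and Polr2h above Polr2i, and in 11 to 14 libraries for the others. In spleen the order after Polr2a was Polr2g (52.3), Polr2d (36.9), Polr2c (35.7), Polr2j (33.9), Polr2b (30), Polr2e (29.5), Polr2h (19.3) and Polr2i (15.5 CPM per kb). No pair of neighbours kept its order in all 16 spleen libraries, and Polr2b stood above Polr2e in 8 of 16.

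The order depended on the length used. The tables give Polr2f 543 exon bases, while its principal transcript in GENCODE M21 has 885, and they give Polr2e 2670 against 1148. Per kilobase of principal transcript, Polr2a came first in both systems, with 77.7 ± 8.33 CPM per kb in CH12F3 and 86.8 ± 11.6 in spleen, and stood above the next gene, Polr2e, in 13 of 16 and 15 of 16 libraries. Polr2i stayed last by both lengths in both systems, with 17.4 ± 3.84 in CH12F3 and 23 ± 3.7 CPM per kb of principal transcript in spleen. Which length fits the RNA in these cells was not tested.

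**Figure D2:**
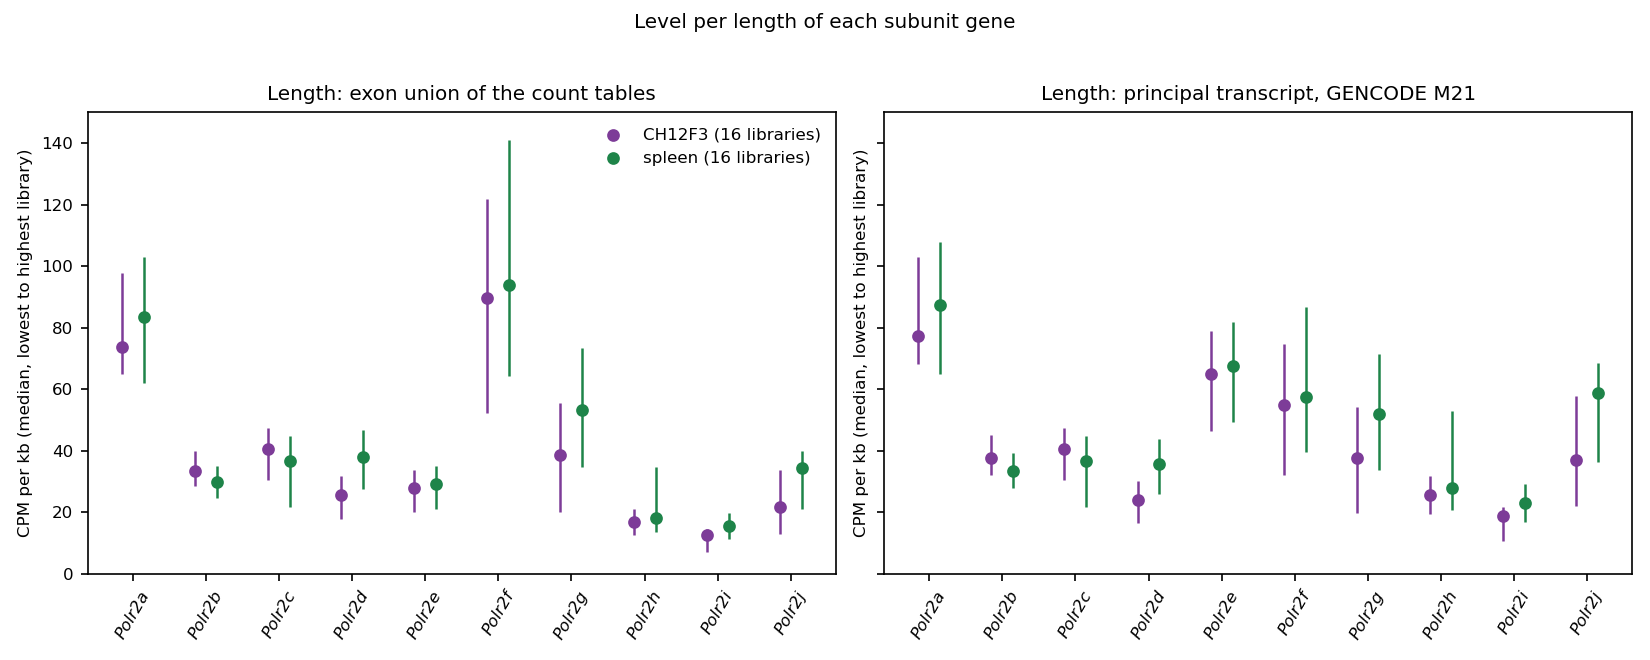
Level per kilobase of each subunit gene in CH12F3 and spleen, with the exon length of the count tables on the left and the principal transcript length on the right, in CPM per kb. Points are medians and lines run from the lowest to the highest of 16 libraries. Polr2f leads on the left and Polr2a on the right, and Polr2i is lowest in both panels.

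Ratios within a library do not depend on how libraries are scaled. The catalytic pair Polr2a to Polr2b gave a ratio of 2.2 ± 0.348 in CH12F3 and 2.79 ± 0.503 in spleen, per kb of exon length (SD, n = 16 each). It was highest at spleen day 3.5, with 3.35 ± 0.237 in cKO and 3.11 ± 0.188 in WT libraries (n = 3 each), and lowest at CH12F3 day 7, with 1.93 ± 0.432 in vector and 1.86 ± 0.0839 in ELOF1 cells (n = 2 each). The assembly pair Polr2c to Polr2j gave 1.87 ± 0.29 in CH12F3 (range 1.38 to 2.4) and 1.06 ± 0.192 in spleen (range 0.684 to 1.45). The stalk pair Polr2d to Polr2g gave 0.71 ± 0.145 in CH12F3 and 0.741 ± 0.188 in spleen, with overlapping ranges. All 3 ratios overlapped between the systems, the assembly pair by the least.

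Whether loss of ELOF1 was accompanied by a change of the subunit genes was asked at 5 time points. Fold changes are log2 with their standard error (SE), from edgeR's quasi-likelihood test, and a gene was called at an adjusted p below 0.05. None of the 10 members was called in any of the 5 comparisons. Of all tested genes, 1.15% were called for vector over ELOF1 cells at day 1.5, 0.00704% at day 3 and 0.0352% at day 7, and 5.18% for cKO over WT at day 2.5 and 2.07% at day 3.5. With same-numbered CH12F3 libraries paired by a replicate block, 8.6% of all genes were called at day 1.5, 0.246% at day 3 and 0.493% at day 7, and 0 of the 10 members in these 3 comparisons. In spleen the numbers do not pair the libraries throughout. The block there called 1 member at day 2.5 (Polr2a) and 0 at day 3.5, with 11.5% and 6.21% of all genes called. The shares also moved when 1 library was left out, down to 0.291% for CH12F3 day 1.5 without vector replicate 2, 3.18% for spleen day 2.5 without WT replicate 1 and 0.445% for spleen day 3.5 without cKO replicate 3. At an unadjusted p under 0.05 there was 1 member at CH12F3 day 1.5 (Polr2e), 1 at spleen day 2.5 (Polr2a) and 0 in the other 3 comparisons. Of all tested genes, 1904 of 14201 were under it at CH12F3 day 1.5, 590 at day 3 and 809 at day 7. In spleen 2401 of 13367 were under it at day 2.5 and 1808 at day 3.5, so 1 of 10 members is not above the background in either system. With the replicate block in CH12F3 there were 2 at day 1.5 (Polr2e, adjusted p = 0.0734, and Polr2j, adjusted p = 0.175), 0 at day 3 and 2 at day 7 (Polr2j, adjusted p = 0.293, and Polr2g, adjusted p = 0.394). In that setting 3145, 1349 and 1712 of 14201 tested genes were under it at days 1.5, 3 and 7. DESeq2 also called 0 members in each of the 5.

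The intervals bound what could have been missed. At CH12F3 day 1.5 the members' log2 fold changes ran from -0.03 to 0.27 with a median of 0.07, and the widest 95% interval reached a 1.52-fold difference. At day 3 they ran from -0.13 to 0.21 (median 0.01, widest bound 1.4-fold) and at day 7 from -0.18 to 0.42 (median 0.08, widest bound 1.85-fold). In spleen they ran from -0.08 to 0.24 at day 2.5 (median 0.04, widest bound 1.39-fold) and from -0.22 to 0.22 at day 3.5 (median 0.12, widest bound 1.6-fold). The median of all tested genes was within 0.013 of 0 in each comparison. Differences smaller than these bounds could be missed with these replicates.

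**Figure D3:**
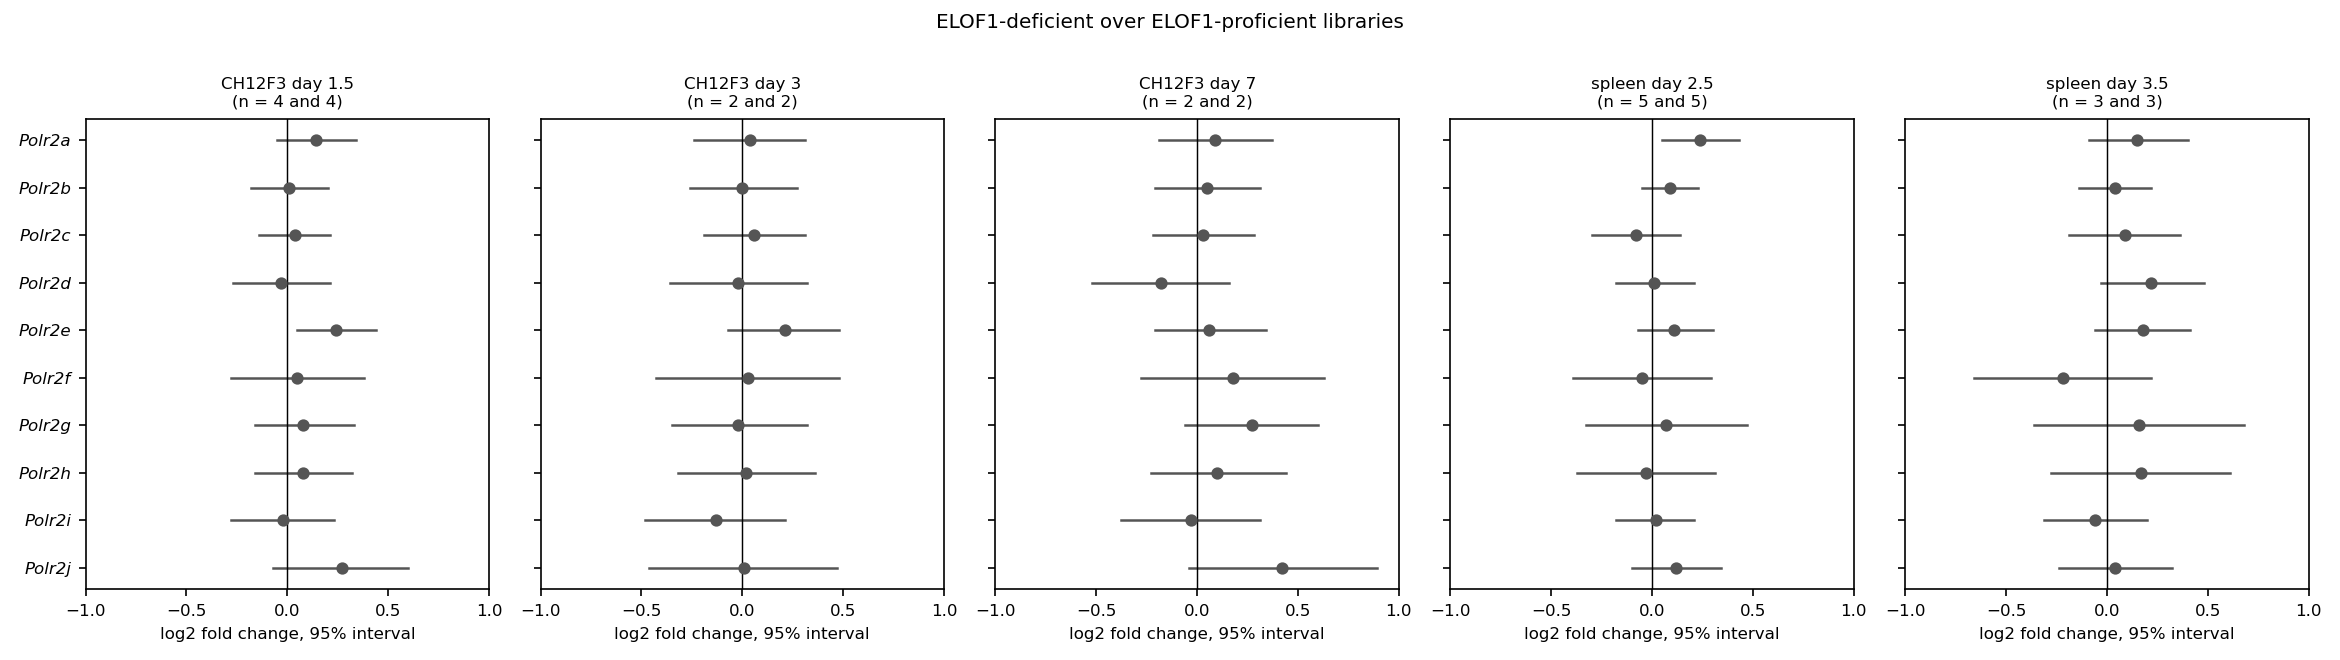
Log2 fold change of each subunit gene, ELOF1-deficient over ELOF1-proficient, in the 5 genotype comparisons. Points are edgeR estimates and lines their 95% intervals, and the numbers of libraries stand above each panel. No subunit gene passed an adjusted p of 0.05, and the intervals that leave out 0 belong to Polr2e at CH12F3 day 1.5 and Polr2a at spleen day 2.5.

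Polr2a, the catalytic subunit whose CTD is phosphorylated, had 631, 647, 703, 631 and 461 CPM in cKO libraries at spleen day 2.5, against 542, 592, 552, 495 and 438 CPM in WT libraries. The second-series cKO libraries (631, 647 and 703 CPM) all lay above the second-series WT libraries (542, 592 and 552 CPM), while the ranges of all 5 against 5 overlapped. The log2 fold change was 0.24 (SE 0.09, 95% interval 0.05 to 0.43, adjusted p = 0.151). It was 0.23 within each library series, with an adjusted p of 0.115 in the second and 1 in the first. Without cKO replicate 5 it was 0.31 with an adjusted p of 0.0421. That library's 461 CPM was the lowest of the cKO group, and the 438 CPM of WT replicate 5 the lowest of the WT group. At day 3.5 Polr2a had 587, 725 and 615 CPM in cKO against 591, 566 and 578 CPM in WT libraries, with overlapping groups and a log2 fold change of 0.15 (SE 0.12, adjusted p = 0.682).

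In CH12F3, Polr2a had 691, 555, 545 and 530 CPM in vector cells at day 1.5, against 574, 489, 536 and 528 CPM in ELOF1 cells. The groups overlapped, and the log2 fold change was 0.14 (SE 0.09, adjusted p = 0.566). It was 0.24 in the first library series and 0.01 in the second. At day 3 Polr2a had 507 and 499 CPM in vector cells against 514 and 460 CPM in ELOF1 cells, and at day 7 it had 462 and 537 CPM in vector cells against 478 and 473 CPM in ELOF1 cells. Both pairs of groups overlapped, with log2 fold changes of 0.04 (SE 0.13) and 0.09 (SE 0.13).

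Polr2b, the other catalytic subunit, had log2 fold changes between 0.00 and 0.09 in the 5 comparisons. It had 149, 140, 167 and 147 CPM in vector cells against 150, 134, 171 and 154 CPM in ELOF1 cells at day 1.5, and its log2 fold change was 0.01 (SE 0.09). The groups overlapped almost wholly. In spleen at day 2.5 it had 150, 145, 158, 152 and 161 CPM in cKO libraries against 133, 138, 140, 152 and 163 CPM in WT libraries, again overlapping, with 0.09 (SE 0.07, adjusted p = 0.536).

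Polr2e encodes RPB5, which is shared by all 3 nuclear polymerases. It had 78.5, 73.1, 71.7 and 76 CPM in vector cells at day 1.5, against 53.4, 70.9, 63 and 68.8 CPM in ELOF1 cells. Each vector library lay above each ELOF1 library, and the log2 fold change was 0.24 (SE 0.09, adjusted p = 0.248). At day 3 the groups of 2 libraries did not overlap, with 76.6 and 76.9 CPM in vector cells against 61.9 and 70.4 CPM in ELOF1 cells. The log2 fold change was 0.21 (SE 0.13, adjusted p = 1). At day 7 they did overlap, with 90.6 and 82.8 CPM in vector cells against 84.2 and 84 CPM in ELOF1 cells. In spleen its log2 fold change was 0.11 (SE 0.09) at day 2.5 and 0.18 (SE 0.11) at day 3.5. Groups did not overlap for 1 of the 10 members at CH12F3 day 1.5, 1 at day 3 and 2 at day 7. In spleen this held for 0 at day 2.5 and 1 at day 3.5. The share of all genes without overlap was not counted, so such groups are a description of these libraries.

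Of the assembly pair, Polr2j (RPB11) had 24.6, 18.4, 27.2 and 23.9 CPM in vector cells at day 1.5 against 20.2, 14.3, 24.3 and 20.8 CPM in ELOF1 cells. The vector library was the higher in 4 of 4 same-numbered pairs, as it also was for Polr2a and Polr2e at that day. The share of all genes with this pattern was not counted. For Polr2j the groups overlapped (0.27, SE 0.16, adjusted p = 0.52). Polr2j had 37.3 and 23.9 CPM in vector cells at day 7 against 23.2 and 22.9 CPM in ELOF1 cells. Its groups did not overlap, by a margin that rests on the lower vector library, and its log2 fold change was 0.42 (SE 0.22, adjusted p = 0.898). Polr2c (RPB3), its partner, had 74.6 and 66.8 CPM in vector cells against 74.9 and 65.4 CPM in ELOF1 cells there. In spleen at day 3.5 Polr2c had 59.3, 62.1 and 56.8 CPM in cKO against 55.7, 56.5 and 55.5 CPM in WT libraries, which did not overlap, with a log2 fold change of 0.09 (SE 0.13, adjusted p = 0.881).

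Of the stalk pair, Polr2g (RPB7) had 48.2 and 42.5 CPM in vector cells at day 7 against 40.6 and 35.6 CPM in ELOF1 cells, without overlap, and a log2 fold change of 0.27 (SE 0.15, adjusted p = 0.937). Polr2d (RPB4) was at a value below 0 at that day, with 28.7 and 21.7 CPM in vector cells against 30.5 and 27.2 CPM in ELOF1 cells, which overlapped (-0.18, SE 0.16, adjusted p = 0.999). In spleen at day 3.5 Polr2d had 35.9, 41.3 and 44.6 CPM in cKO against 30.8, 36.5 and 37.1 CPM in WT libraries, again overlapping (0.22, SE 0.12, adjusted p = 0.469).

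The shared subunits Polr2f and Polr2h and the small Polr2i had log2 fold changes between -0.22 and 0.18 in the 5 comparisons, all with overlapping groups. Polr2f, RPB6, gave the lowest of these at spleen day 3.5, with 47.7, 40.8 and 35 CPM in cKO against 53.6, 48.4 and 42 CPM in WT libraries (-0.22, SE 0.21, adjusted p = 0.763). Polr2i, RPB9, had 15.7 and 16.1 CPM in vector cells against 17.3 and 15.7 CPM in ELOF1 cells at day 7 (-0.03, SE 0.16).

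Scaling by the fly spike-in, RNA of Drosophila cells added by cell number, changed the sign of many of these values and called none. It moved the median of all tested genes to -0.19 at CH12F3 day 3, -0.14 at day 7, -0.14 at spleen day 2.5 and -0.29 at spleen day 3.5. With it, 4 members were above 0 at CH12F3 day 1.5, 1 at day 3, 3 at day 7, 1 at spleen day 2.5 and 0 at spleen day 3.5, against 8, 7, 8, 7 and 8 with TMM scaling. Relative to the shifted median, Polr2a at spleen day 2.5 was at 0.23, beside 0.24 with TMM scaling.

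Genotype differences were also compared between days. None of the 10 members was called for the day 3 minus day 1.5 or the day 7 minus day 1.5 difference in CH12F3, nor for the day 3.5 minus day 2.5 difference in spleen, and 0% of all tested genes were called in each. No member had an unadjusted p under 0.05 there, and DESeq2 called 0 members too. Of all tested genes, 173 (day 3) and 272 (day 7) of 14201 were under that p in CH12F3 and 278 of 13367 in spleen. The differences for single members ran from -0.26 (Polr2j, SE 0.27, CH12F3 day 3 minus day 1.5) to 0.21 (Polr2d, SE 0.15, spleen).

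Time in culture was compared within each genotype, with the same fits and therefore the same libraries. None of the 10 members was called at day 3 over day 1.5 in vector cells or ELOF1 cells, where 0.00704% of all tested genes were called in each. None was called at day 7 over day 1.5, where 0.169% were called in vector cells and 0.0493% in ELOF1 cells. None was called at day 3.5 over day 2.5 in spleen, where 3.4% were called in cKO and 5.45% in WT libraries. DESeq2 called 0 members in each of these 6. At an unadjusted p under 0.05 there was 1 member at day 7 in vector cells (Polr2g), 1 in ELOF1 cells (Polr2e) and 1 in each spleen genotype (Polr2b), and 0 at day 3. Of all tested genes, 1218 of 14201 were under it at day 7 in vector cells and 1079 in ELOF1 cells. At day 3 these were 856 and 598, and in spleen 2108 of 13367 in cKO and 2450 in WT libraries.

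At CH12F3 day 7, 9 of 10 members had a log2 fold change above 0 over day 1.5 in vector cells (median 0.12) and 9 of 10 in ELOF1 cells (median 0.13), beside medians of all tested genes of -0.00353 and -0.00788. Polr2a was the exception in both, with -0.16 (SE 0.12) in vector and -0.11 (SE 0.12) in ELOF1 cells. The same counts, 9 and 9, were found with fly scaling. The myeloid marker sum also differed between these days, and its part was not tested. Its median was 173 CPM at day 7 against 63.2 CPM at day 1.5 in vector cells, and 140 against 59.5 CPM in ELOF1 cells. At day 7 only 2 of the 6 markers reached 1 CPM in each genotype. Cd14 and S100a8 stayed below 0.1 CPM in every CH12F3 library, and Lyz2 in every vector library. The stalk gene Polr2g had 48.2 and 42.5 CPM at day 7 in vector cells, against 19.4, 21.3, 34.9 and 30.8 CPM at day 1.5, where 19.4 and 21.3 CPM were from the first library series. The days did not overlap, and with the library series in the fit the log2 fold change was 0.46 (SE 0.15, adjusted p = 0.278). The shared Polr2e had 84.2 and 84 CPM at day 7 in ELOF1 cells, against 53.4, 70.9, 63 and 68.8 CPM at day 1.5. Here too the days did not overlap (0.38, SE 0.12, adjusted p = 0.389). Between day 7 and day 1.5 this held for 4 of the 10 members in vector and 6 in ELOF1 cells. All day 7 libraries are of the second library series, while day 1.5 holds both, and CPM are not adjusted for the series. The share of all genes was not counted, so these counts describe these libraries only.

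At spleen day 3.5, 9 of 10 members had a log2 fold change below 0 over day 2.5 in cKO (median -0.17) and 9 of 10 in WT libraries (median -0.18), beside medians of all tested genes of -0.000965 and 0.00597. With fly scaling all 10 were below 0 in both, and the median of all tested genes moved to -0.22 in cKO and -0.08 in WT. Without the library series in the fit, 6 of 10 were below 0 in each. The plasma cell marker sum had a median of 799 CPM at day 3.5 against 541 CPM at day 2.5 in cKO and 797 against 506 CPM in WT, and its part was not tested. The catalytic Polr2b had 126, 138 and 116 CPM at day 3.5 in cKO against 150, 145, 158, 152 and 161 CPM at day 2.5, and 117, 124 and 128 CPM at day 3.5 in WT against 133, 138, 140, 152 and 163 CPM at day 2.5. The days overlapped in neither genotype. The log2 fold change of Polr2b was -0.23 (SE 0.08, adjusted p = 0.158) in cKO and -0.17 (SE 0.08, adjusted p = 0.266) in WT libraries. Days did not overlap for 1 of the 10 members in cKO and 2 in WT libraries. The share of all genes was not counted, and all day 3.5 libraries are of the second library series.

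Within the second library series alone, 3 values of these spleen time comparisons passed the threshold: Polr2b in cKO (-0.24, adjusted p = 0.0404), Polr2f in cKO (-0.38, adjusted p = 0.0318) and Polr2c in WT (-0.27, adjusted p = 0.0212). Of all tested genes, 13.1% were called in cKO and 15.6% in WT in that setting, so 2 of 10 and 1 of 10 members are near the background. The shared subunit gene Polr2f had 47.7, 40.8 and 35 CPM at day 3.5 in cKO, against 56.9, 58.5 and 47.7 CPM in the second series and 41.3 and 67.1 CPM in the first at day 2.5. The assembly gene Polr2c had 55.7, 56.5 and 55.5 CPM at day 3.5 in WT, against 65, 68.7 and 70.8 CPM in the second series and 48.4 and 34.9 CPM in the first at day 2.5. In both genes the first-series libraries widened the spread at day 2.5. With all libraries the same values were -0.39 (adjusted p = 0.363) for Polr2f and -0.25 (adjusted p = 0.308) for Polr2c.

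**Figure D4:**
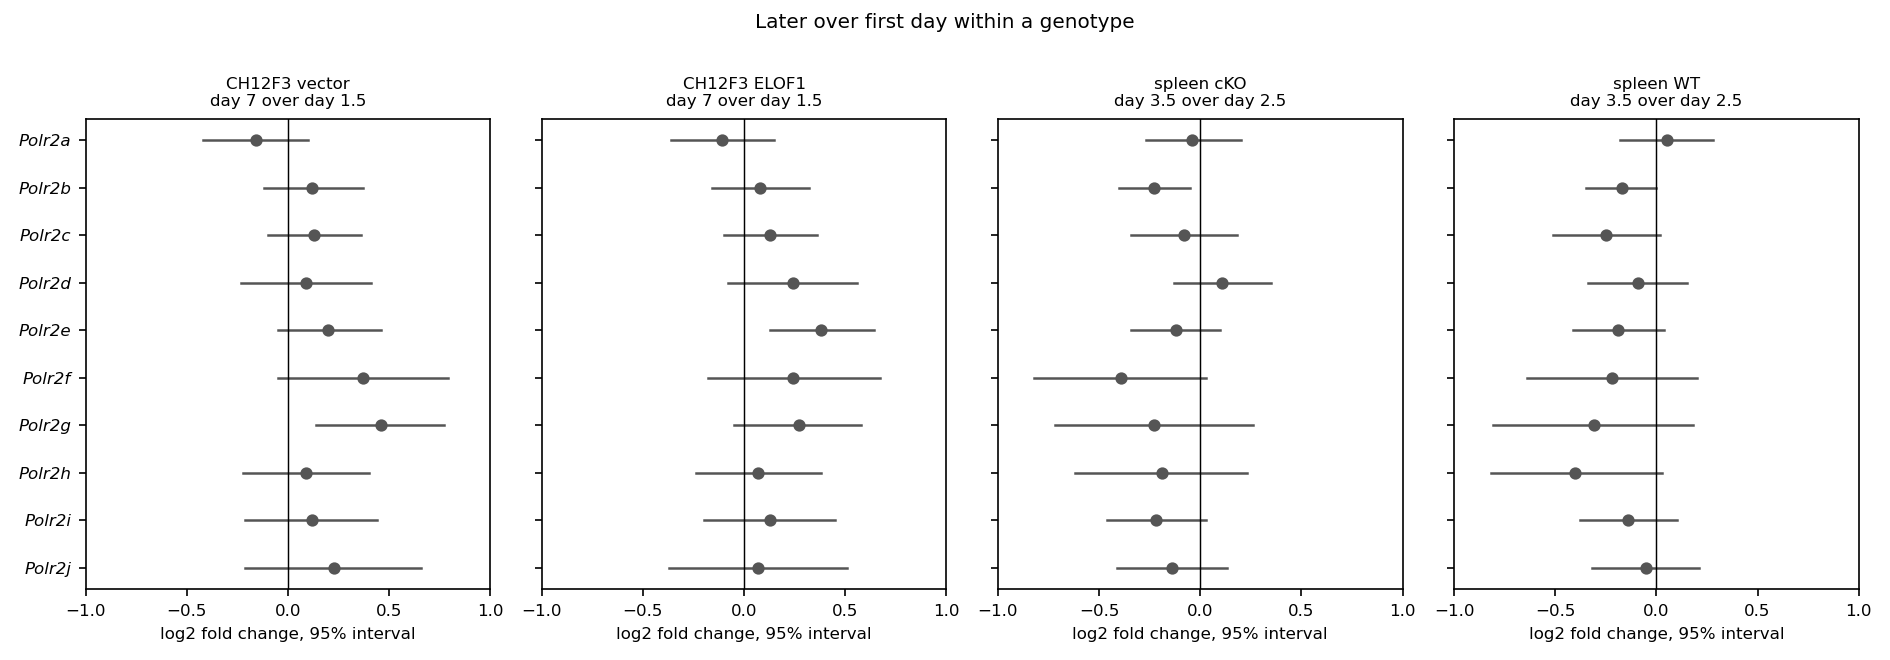
Log2 fold change of each subunit gene, later over first day, in vector and ELOF1 cells of CH12F3 and in cKO and WT spleen libraries. Points are edgeR estimates with the library series in the fit, and lines are 95% intervals. At CH12F3 day 7 all points but Polr2a lie above 0, and at spleen day 3.5 all but Polr2d in cKO and Polr2a in WT lie below 0, with none past an adjusted p of 0.05.

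More genes were called between the systems than between genotypes or days. ELOF1 cells of all 3 days (n = 8) were set against WT spleen libraries of both days (n = 8), and 67.4% of all 15639 tested genes were called. Of the members, 5 of 10 were called, a share below that background. Polr2b was higher in CH12F3, and Polr2d, Polr2g, Polr2i and Polr2j were lower. Line, stimulus and time in culture differ together here and cannot be told apart. The same holds for the state of Elof1, as ELOF1 cells carried added ELOF1 on a knockout and WT spleen cells were wild-type. Elof1 itself was higher in CH12F3, at 3.26 (SE 0.35, adjusted p = 4.1e-09).

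Both stalk genes were among the lower ones. Polr2d ranged from 20 to 30.5 CPM in CH12F3 ELOF1 cells (median 24.8) and from 28.4 to 40.3 CPM in WT spleen (median 34.3), with a log2 fold change of -0.45 (SE 0.08, adjusted p = 1.7e-05). Polr2g ranged from 17.6 to 40.6 CPM in CH12F3 (median 32.6) and from 30.1 to 63.8 CPM in WT spleen (median 43.6), with -0.43 (SE 0.15, adjusted p = 0.0139). The ranges overlapped for both genes, more so for Polr2g. Polr2g lost its call without ELOF1 cells of day 3 replicate 2 (-0.36, adjusted p = 0.0659) or of day 7 replicate 2 (-0.38, adjusted p = 0.0523).

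Of the assembly pair, Polr2j was lower and Polr2c was not called. Polr2j ranged from 14.3 to 26.5 CPM in CH12F3 (median 23.1) and from 23.4 to 44.2 CPM in WT spleen (median 36.7), and 1 of the 8 spleen libraries, with 23.4 CPM, lay within the CH12F3 range. Its log2 fold change was -0.71 (SE 0.1, adjusted p = 6.88e-07). Lrwd1, which shares exon bases with it on the other strand, was at -0.01 (SE 0.07, adjusted p = 0.9). Polr2c ranged from 49 to 74.9 CPM in CH12F3 (median 64.2) and from 34.9 to 70.8 CPM in WT spleen (median 56.1), with 0.15 (SE 0.08, adjusted p = 0.108). Dok4, the gene opposite Polr2c, was higher in CH12F3 at 3.07 (SE 0.42, adjusted p = 2.7e-07), and its part in the Polr2c counts was not tested.

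Of the catalytic pair, Polr2b was higher in CH12F3, with 134 to 175 CPM (median 158) against 117 to 163 CPM in WT spleen (median 136) and a log2 fold change of 0.26 (SE 0.07, adjusted p = 0.0012). Polr2a had 460 to 574 CPM in CH12F3 (median 501) against 438 to 592 CPM in WT spleen (median 559), and was at -0.15 (SE 0.08, adjusted p = 0.114). Within the second library series Polr2a was called lower, at -0.19 (adjusted p = 0.00388). The ranges overlapped for both.

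Polr2i was lower in CH12F3, with 8.78 to 17.7 CPM (median 15.4) against 13.7 to 22.9 CPM in WT spleen (median 19.5) and a log2 fold change of -0.34 (SE 0.08, adjusted p = 0.000497). Without the library series in the fit it was -0.33 with an adjusted p of 0.0588. Tbcb, the gene opposite its exons, was at -0.72 (SE 0.11, adjusted p = 1.4e-06), and its part in the Polr2i counts was not tested. Among the members, the 3 named above as shared with polymerases I and III were not called. Their values were -0.08 (SE 0.08) for Polr2e, -0.13 (SE 0.13) for Polr2f and -0.07 (SE 0.14) for Polr2h. Subunit genes outside the members, Polr2l among them, are not part of this statement and are given with the lists below.

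The direction of these differences depends on the scale. Mouse counts per fly count were 28.4 to 46.5 in CH12F3 and 11.9 to 33.7 in spleen libraries. With fly scaling the median of all tested genes moved to 1.08, 84.2% of genes were called, and all 10 members were called higher in CH12F3, from 0.42 for Polr2j to 1.38 for Polr2b. Relative to that median, Polr2b was at 0.29 and Polr2d, Polr2g, Polr2i and Polr2j were at -0.41, -0.41, -0.30 and -0.67. Relative to the median of all genes under TMM scaling, the same 5 were at 0.29, -0.42, -0.40, -0.31 and -0.68.

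**Figure D5:**
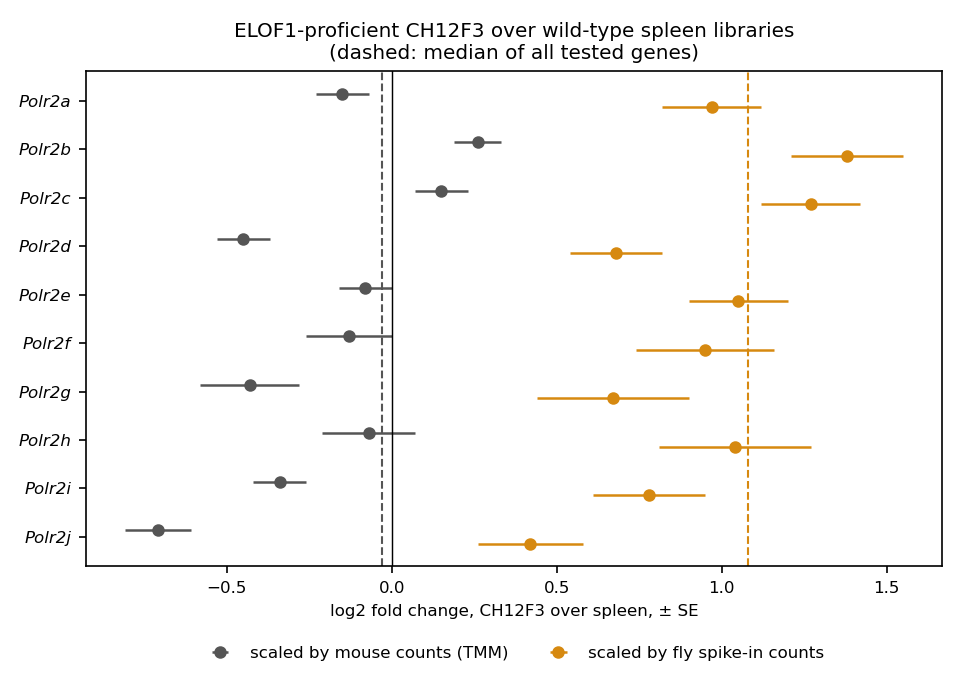
Log2 fold change of each subunit gene in ELOF1-proficient CH12F3 over wild-type spleen libraries, scaled by mouse counts (grey) or by fly spike-in counts (orange). Points are edgeR estimates, bars are ± SE and dashed lines the median of all tested genes. The whole set shifts from around 0 to around 1 with the scale, while Polr2b stays right and Polr2j left of each dashed line.

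The 2 library series separated several members. First over second series, 38.5% of all tested CH12F3 genes and 40.3% of spleen genes were called, and of the members 4 of 10 in CH12F3 and 7 of 10 in spleen. Polr2i had 8.76 and 9.47 CPM in first-series and 16.9 and 13 CPM in second-series vector libraries at day 1.5, and 8.78 and 10.6 CPM in first-series and 14.6 and 15.1 CPM in second-series ELOF1 libraries. Every first-series library was below every second-series one. The log2 fold change was -0.66 (SE 0.12, adjusted p = 0.000887) in CH12F3 and -0.53 (SE 0.1, adjusted p = 0.000556) in spleen.

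Members did not follow the library series as 1 block. Polr2g was lower in the first series in CH12F3 (-0.71, SE 0.11, adjusted p = 0.00038) and not called in spleen (-0.05, SE 0.19). Polr2c and Polr2d were lower in both systems, with -0.33 and -0.31 in CH12F3 and -0.62 and -0.38 in spleen. Polr2a, Polr2e and Polr2j were lower in spleen (-0.26, -0.28 and -0.47) and not called in CH12F3 (0.11, -0.02 and -0.32). Polr2h was higher in spleen, at 0.47 (SE 0.16, adjusted p = 0.029), and not called in CH12F3 (-0.25, SE 0.11). A difference between the systems in these values was not tested.

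Within the first spleen series, replicates 4 and 5 lay far apart for the stalk gene Polr2g and the shared subunit genes Polr2f and Polr2h. Polr2g had 30.5 CPM in replicate 4 and 63.5 CPM in replicate 5 of cKO, and 30.1 and 63.8 CPM in those of WT. Polr2f had 41.3 and 67.1 CPM in cKO, and 38.9 and 76.8 CPM in WT. Polr2h had 27.4 and 44.6 CPM in cKO, and 27.7 and 50.2 CPM in WT. Replicate 5 was the higher in all 6 pairs. For Polr2c it was the lower, with 49.1 and 34.4 CPM in cKO and 48.4 and 34.9 CPM in WT.

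Correlations of log2 CPM across the 16 libraries of a system, with the library series removed, describe which members moved together. The libraries share depth and scaling, and the genes are read from the same libraries, so no test is given. Polr2f and Polr2g gave r = 0.78 in CH12F3 and 0.82 in spleen, and Polr2g and Polr2h gave 0.32 in CH12F3 and 0.90 in spleen. Within the 12 second-series libraries of a system, Polr2f and Polr2g gave 0.84 in CH12F3 and 0.55 in spleen, and Polr2g and Polr2h gave 0.32 in CH12F3 and 0.81 in spleen. Polr2a had a median r of -0.24 with the 9 other members in CH12F3, where the medians of the others lay between 0.02 and 0.46. In spleen its median was -0.10, close to the -0.07 of Polr2c and the 0.05 of Polr2d. In the second series alone all 9 correlations of Polr2a in CH12F3 were negative (-0.62 to -0.18), and 3 of 9 in spleen were positive. The spleen medians in that series were -0.03 for Polr2a, 0.44 for Polr2c and 0.11 for Polr2d.

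The genes with a pattern most like the mean of the 10 members, out of 12248 tested in both systems, were Tbl3, Ppp1cc, Ahsa1, Paf1 and Gm42743. Tbl3 had an r of 0.901 in CH12F3 and 0.867 in spleen over 16 libraries each. For Polr2a alone they were Kmt2e, Jak2, Rara, Washc4 and Plekhg2, with 0.76 in CH12F3 and 0.886 in spleen for Kmt2e. The members themselves were left out of both rankings.

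Other genes of the polymerase pathway were counted in lists by role, over all their tested genes. Of the 3 other subunit genes, Polr2k, Polr2l and Polr2m, 0 were called in any genotype or time comparison. Of 8 genes of polymerase I, 11 of polymerase III and 18 of general transcription factors, 0 were called by edgeR in those comparisons either. At an unadjusted p under 0.05 there were 2 of 33, 8 of 88, 11 of 121 and 16 of 198 values in these 4 lists over the 11 comparisons. In single comparisons, the count of all tested genes under it ran from 590 of 14201 to 2450 of 13367. The first is vector over ELOF1 cells at day 3, the second day 3.5 over day 2.5 in WT spleen. Among 17 assembly and import factors, Rpap1 was lower in cKO at spleen day 2.5 (82.3 ± 15.5 CPM in cKO and 102 ± 21.2 CPM in WT, SD, n = 5 each; log2 fold change -0.29, SE 0.07, adjusted p = 0.027). Ruvbl2 was lower at day 3.5 than at day 2.5 in WT (-0.42, SE 0.09, adjusted p = 0.016). Each was the only call among the 17 in its comparison, where 5.18% and 5.45% of all tested genes were called.

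The list of CTD kinases, phosphatases and binders had 3 calls between genotypes. Pcif1, which methylates the cap-adjacent adenosine of messenger RNA and binds the CTD, had 35.4 ± 5.95 CPM in vector cells and 61.3 ± 7.17 CPM in ELOF1 cells at day 1.5 (SD, n = 4 each). Its log2 fold change was -0.78 (SE 0.09, adjusted p = 0.0022), the only call among 13 tested, and with fly scaling it was -0.86 (adjusted p = 0.045). Of all tested genes, 1.15% were called in that comparison, and 0% within the second library series alone. At spleen day 2.5, 2 of 14 were higher in cKO, where 5.18% of all tested genes were called. Ctdsp2, a small CTD phosphatase, had 86.1 ± 13.6 CPM in cKO and 60.3 ± 12.6 CPM in WT (0.52, SE 0.11, adjusted p = 0.0095). Cdk9, the kinase of P-TEFb, had 122 ± 1.31 CPM in cKO and 104 ± 10.2 CPM in WT (SD, n = 5 each; 0.25, SE 0.07, adjusted p = 0.043). With fly scaling the calls of Ctdsp2 (0.39, adjusted p = 0.37), Cdk9 (0.10, adjusted p = 0.88), Rpap1 (-0.44, adjusted p = 0.31) and Ruvbl2 (-0.50, adjusted p = 0.54) were lost, with the same signs.

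Between CH12F3 and spleen, 1 of 3 other subunit genes was higher (Polr2m, Gdown1, 0.47, SE 0.07, adjusted p = 1.9e-06) and 1 lower (Polr2l, RPB10, -0.46, SE 0.11, adjusted p = 0.00058). Of 8 genes of polymerase I, 3 were higher, Polr1c at 0.44 (SE 0.15) among them, and 2 lower, with Znrd1 at -0.37 (SE 0.1). Of 11 genes of polymerase III, 3 were higher and 4 lower, with Polr3g at 0.83 (SE 0.14) and Crcp at -0.59 (SE 0.14). Of 18 general transcription factors, 6 were higher and 5 lower, with Mnat1, a subunit of the kinase module of TFIIH, at 0.72 (SE 0.11).

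Of 17 assembly and import factors, 3 were higher in CH12F3 and 8 lower, with Pih1d1, a subunit of the R2TP complex, at -1.06 (SE 0.1) and Ruvbl2, an ATPase of the same complex, at 0.66 (SE 0.07). Of 14 genes of the CTD list, 2 were higher and 9 lower, with Ctdsp2 at 0.99 (SE 0.12), Ctdsp1 at -0.74 (SE 0.08), Ssu72 at -0.59 (SE 0.07) and a list median of -0.35, beside -0.0294 for all tested genes and -0.14 for the 10 members. Ctdspl, also called lower, had 0.00942 ± 0.0266 CPM in CH12F3 and 3.45 ± 0.968 CPM in WT spleen (SD, n = 8 each). These calls have the same background of 67.4% as those of the members. With fly scaling, 3 of 3 other subunit genes, 8 of 8 genes of polymerase I, 10 of 11 of polymerase III, 18 of 18 general transcription factors, 14 of 17 assembly and import factors and 13 of 14 genes of the CTD list were called higher, and Ctdspl, the remaining gene of that list, was called lower (adjusted p = 9.5e-11). Pih1d1 was then at 0.07 (adjusted p = 0.64), which is -1.01 relative to the median of all genes.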

How the data were processed

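Total RNA was depleted of ribosomal RNA and made into strand-specific libraries, per the labels' protocols. The values are raw read counts per gene that the authors deposited, in 1 table per system; per the submitters' processing notes the tools were Bowtie2 and featureCounts, with genomes mm10 and dm6, and no version or gene release. Mouse and fly counts were separated. Genes were tested with edgeR 4.0.16 (limma 3.58.1, R 4.3.3): TMM scaling, filterByExpr with a minimum count of 10, group and library series as terms, 1 fit per system and a joint fit of all 32 libraries for the comparison of systems, Benjamini-Hochberg adjustment over all tested genes. Library numbers 15 to 22 form the first series (8 libraries), 208 to 231 the second (24). DESeq2 1.42.0, its size factors, fly scaling, no filter, no series term, each series alone, the compared groups alone, a replicate block and leaving out each library were alternatives. The code was tested on simulated data. The members, lists and markers were chosen with earlier results of these data known. All 10 members, Elof1, up to 4 called members per list and the 5 genes most alike are named; the genes opposite the members' exons were added after their values could be seen. In CH12F3, same-numbered libraries deviated together with the series removed, with r of 0.17 to 0.26 at day 1.5. At days 3 and 7 the groups of 2 libraries give both pairs the same r, 0.50 and 0.34. The numbers were taken to pair the CH12F3 libraries, and the block changed no member's call in CH12F3. In spleen the block called 1 member, Polr2a at day 2.5. Python 3.11.15 and pandas 2.3.3 made the tables.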

Additional observations from a re-analysis of the deposited data

Results flagged for a closer look

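Of 40 sets of 4 or 5 libraries (each member in each such group), 2 had a library far from the others. Chance alone gives this for about 1 in 20 independent groups. These sets share libraries and are not independent, so the count cannot be set against that rate. Polr2a had 691 CPM in replicate 1 of vector cells at CH12F3 day 1.5, above 555, 545 and 530 CPM in the others. Polr2h had 50.2 CPM in replicate 5 of WT spleen libraries at day 2.5, above 26.2 to 28.7 CPM in the others. Replicate 5 was also the highest for Polr2h in cKO at that day, with 44.6 CPM. Both flagged libraries are of the first library series.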

How the results depend on the processing

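Of 2420 values of single members under the alternatives, 2402 kept their direction and side of the threshold or were uncalled in both, and 270 had another sign than the main value, 8 of them with a call. Those 8 are CH12F3 over spleen with fly spike-in scaling: Polr2a 0.97, Polr2d 0.68, Polr2e 1.05, Polr2f 0.95, Polr2g 0.67, Polr2h 1.04, Polr2i 0.78 and Polr2j 0.42; 10 members were then called instead of 5. For cKO over WT at spleen day 2.5, leaving out each library in turn called 0 to 1 members (Polr2a without cKO replicate 5). The replicate block called 1 there (Polr2a, 0.24, adjusted p = 0.04), with 11.5% of all genes called. At day 3.5 it called 0, with 6.21% of all genes called. In that comparison 2 members had an unadjusted p under 0.05, beside 2674 of 13367 tested genes. With the series removed, same-numbered spleen libraries had r = 0.65 for replicates 4 and 5 of day 2.5 and -0.28 to 0.07 for the other 6 pairs, so the numbers do not pair the spleen libraries throughout. The block changed no other member's call. Within the second library series alone, 2 members were called at day 3.5 over day 2.5 in cKO and 1 in WT, with 13.1% and 15.6% of all genes called (3.4% and 5.45% with all libraries). By principal transcript length, chosen after seeing the data, 2 members kept their place in the order by level in CH12F3 and 2 in spleen. The count of all genes called moved more: for vector over ELOF1 at day 1.5 it was 164, but 0 in the second series alone, 22 without the series term, 45 with fly scaling, 447 with DESeq2, 735 without filter and 1221 with the block, and for cKO over WT at day 2.5 it was 693, but 0 in the first series alone, 93 with fly scaling, 203 without the series term, 343 for the compared groups alone and 1543 with the block. Counts of called genes over the whole table moved with single libraries. For vector over ELOF1 at day 1.5, 164 genes were called, and 41 to 144 with 1 library left out, fewest without vector replicate 2. For cKO over WT the 693 genes of day 2.5 became 425 to 801, fewest without WT replicate 1, and the 277 of day 3.5 fell in every case, to 62 without cKO replicate 3 and 69 without WT replicate 1. For day 3.5 over day 2.5 the 455 genes in cKO became 179 to 624, fewest without cKO replicate 3 of day 3.5, and the 729 in WT became 301 to 1045, fewest without WT replicate 2 of day 3.5. For day 7 over day 1.5 in vector cells the 24 genes became 0 to 24, with 0 without vector replicate 2 of day 7. Differences below the stated intervals are beyond the depth and replicate numbers here.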
